A study of Mus musculus with 12 samples.

Results

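Kupffer cells, the resident macrophages of the liver, were followed through 10 genes that mark them and other macrophages: Marco, Msr1, Cd163, Cd68, Cd5l, Vsig4, Csf1r, C1qa, C1qb and C1qc. The genes were chosen by name, through the gene name that the array design gives to its non-control probes. They were represented by 14 probes, out of 27824 genes and 41174 probes on the array, and all 10 were among the 18708 genes tested. The markers were measured in whole liver, so fewer macrophages and less RNA per macrophage cannot be told apart in any value below.

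The study concerns Hes1, a transcriptional repressor, and glucocorticoid signalling in the liver. Liver RNA of male C57BL/6 mice, 8 to 10 weeks old, was hybridised to 12 one-colour Agilent arrays in 4 groups of 3 arrays. The groups were wild-type liver without treatment, wild-type liver 6 h after an intraperitoneal injection of 1 mg/kg dexamethasone, HESKOL liver without treatment, and HESKOL liver 6 h after the same injection. Every mouse, the controls included, had been adrenalectomized, which removes its own source of glucocorticoids. HESKOL is the submitters' name for the knockout, and the labels used here give neither its driver nor the deleted segment. No vehicle injection is described for the untreated groups. The labels do not state that each array came from a separate mouse, so p-values measure only the spread between these samples, which may be technical.

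Kupffer cells line the liver sinusoids and clear bacteria, ageing red cells, modified lipoproteins and immune complexes from the portal blood. They do so with scavenger receptors (Cd163, Msr1, Marco, Cd68), with a receptor for complement-coated particles (Vsig4), and with soluble proteins that bind lipids and debris (Cd5l) or start the classical complement cascade (C1q). Their survival depends on signals through the receptor Csf1r. Glucocorticoids act on macrophages through the glucocorticoid receptor: Cd163 is a textbook glucocorticoid-induced gene of these cells, whereas inflammatory cytokine genes are typically repressed.

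Levels are on the log2 scale, relative to the 75th percentile of each array's processed signal, which lay between 897 and 1614 units. On each array 61.5% to 71.9% of probes were well above background, and so were the 14 marker probes on every array, except for 1 Vsig4 spot that was left out. Hes1 was lower in HESKOL liver without overlap in either treatment state, at -1.49, -1.22 and -1.90 in untreated wild-type against -2.46, -2.40 and -3.09 in untreated HESKOL liver. This difference of -1.12 ± 0.43 (SE) did not pass the test (adjusted p = 1.00 by limma). Clec4f, a lectin restricted to Kupffer cells, and Adgre1, the classical adhesion-receptor marker of mouse macrophages, were well above background on all arrays. Replicate 1 of treated wild-type liver stood apart: it deviated from its group by a root mean square of 0.995 log2 units over all genes, against 0.463 to 0.798 for the other 11 arrays. On that array 2 known glucocorticoid-induced genes went against the label. Fkbp5, a chaperone of the glucocorticoid receptor, was at -0.998, 3.45 and 3.98 on the treated arrays against 0.33, 1.19 and -0.65 without treatment, and Tsc22d3, which encodes GILZ, at 2.40, 5.51 and 4.32 against 3.43, 3.75 and 3.44. The first value of each treated group is replicate 1, below all untreated arrays. Lyve1, an endothelial gene that rose with treatment in both genotypes, was at 2.32, 2.40 and 3.54 against 0.92, 0.29 and 0.39, so there the same array lay above the untreated ones. Results are therefore given with and without the array labelled replicate 1 of treated wild-type liver.

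Promoter sequence is shown for Cd163, the 1 marker that rose, and for C1qb, C1qc and Vsig4, because these 4 held one or both of the motifs searched. The windows are the 250 bases before the RefSeq start on GRCm38.p6, written 5′ to 3′ along the gene's strand. Capitals mark AGAACA, a half-site of the glucocorticoid response element, or GGAAGT, a core that PU.1, the macrophage-defining ETS factor, can bind, each searched on both strands. The windows are chr6:124304401-124304650 (plus strand) for Cd163, and on the minus strand chr4:136886201-136886450 for C1qb, chr4:136892915-136893164 for C1qc and chrX:96293439-96293688 for Vsig4.
Cd163: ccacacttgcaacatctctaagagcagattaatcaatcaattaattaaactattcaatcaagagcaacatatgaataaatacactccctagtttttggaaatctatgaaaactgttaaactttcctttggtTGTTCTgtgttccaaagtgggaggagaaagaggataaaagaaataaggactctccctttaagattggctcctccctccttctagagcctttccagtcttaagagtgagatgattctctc
C1qb: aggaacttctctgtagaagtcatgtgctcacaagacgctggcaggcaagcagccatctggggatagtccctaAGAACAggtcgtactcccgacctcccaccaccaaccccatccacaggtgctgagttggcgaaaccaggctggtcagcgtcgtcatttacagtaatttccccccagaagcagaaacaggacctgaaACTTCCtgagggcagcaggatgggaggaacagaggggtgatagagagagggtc
C1qc: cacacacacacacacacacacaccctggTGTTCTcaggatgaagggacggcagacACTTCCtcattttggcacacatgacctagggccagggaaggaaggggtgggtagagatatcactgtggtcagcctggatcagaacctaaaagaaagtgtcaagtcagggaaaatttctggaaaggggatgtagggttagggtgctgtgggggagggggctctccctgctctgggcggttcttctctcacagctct
Vsig4: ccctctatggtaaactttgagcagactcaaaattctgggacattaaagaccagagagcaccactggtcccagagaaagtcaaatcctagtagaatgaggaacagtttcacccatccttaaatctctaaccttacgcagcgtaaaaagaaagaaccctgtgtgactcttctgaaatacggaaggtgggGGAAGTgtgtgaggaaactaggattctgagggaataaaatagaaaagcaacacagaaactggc

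Relative to the start, the half-site stood at -119 in Cd163, -178 in C1qb and -222 in C1qc, and the PU.1-type core at -53 in C1qb, -195 in C1qc and -63 in Vsig4. Of 7 marker promoters searched, 3 held the half-site and 3 the PU.1-type core. Among 32851 promoters of the same length, 16.1% held the half-site and 19.7% the core. A match describes the letters in this window only. For Cd163 and C1qc the start used is not the outermost annotated start of the gene. The windows of Marco, Cd5l and Cd68 held neither motif, and the promoters of Csf1r, Msr1 and C1qa were not used here.

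The probes of C1qa, C1qb and Vsig4 are shown because the values below refer to these 60 bases and not to the whole transcript. The array design places them on the minus strand of mm7 at chr4:136274931-136274990, chr4:136259100-136259159 and chrX:91575173-91575232, in that order.
C1qa: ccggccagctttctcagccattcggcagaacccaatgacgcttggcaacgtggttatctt
C1qb: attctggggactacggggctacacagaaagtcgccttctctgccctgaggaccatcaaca
Vsig4: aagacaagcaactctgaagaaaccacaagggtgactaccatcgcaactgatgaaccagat

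The C1qc probe lay between those of the other C1q chains, at chr4:136268288-136268347, so the 3 probes fell within 15891 bases. The single probes of Marco, Cd5l, Cd163 and Cd68 lay on chromosomes 1, 3, 6 and 11. Msr1 and Csf1r had 3 probes each, and the one with the highest mean over the arrays stands for the gene. The Msr1 probe so chosen spans 2162 bases of mm7, from 38396605 to 38398766 on chromosome 8, so its 60 bases are not contiguous in the genome.

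**Figure D1:**
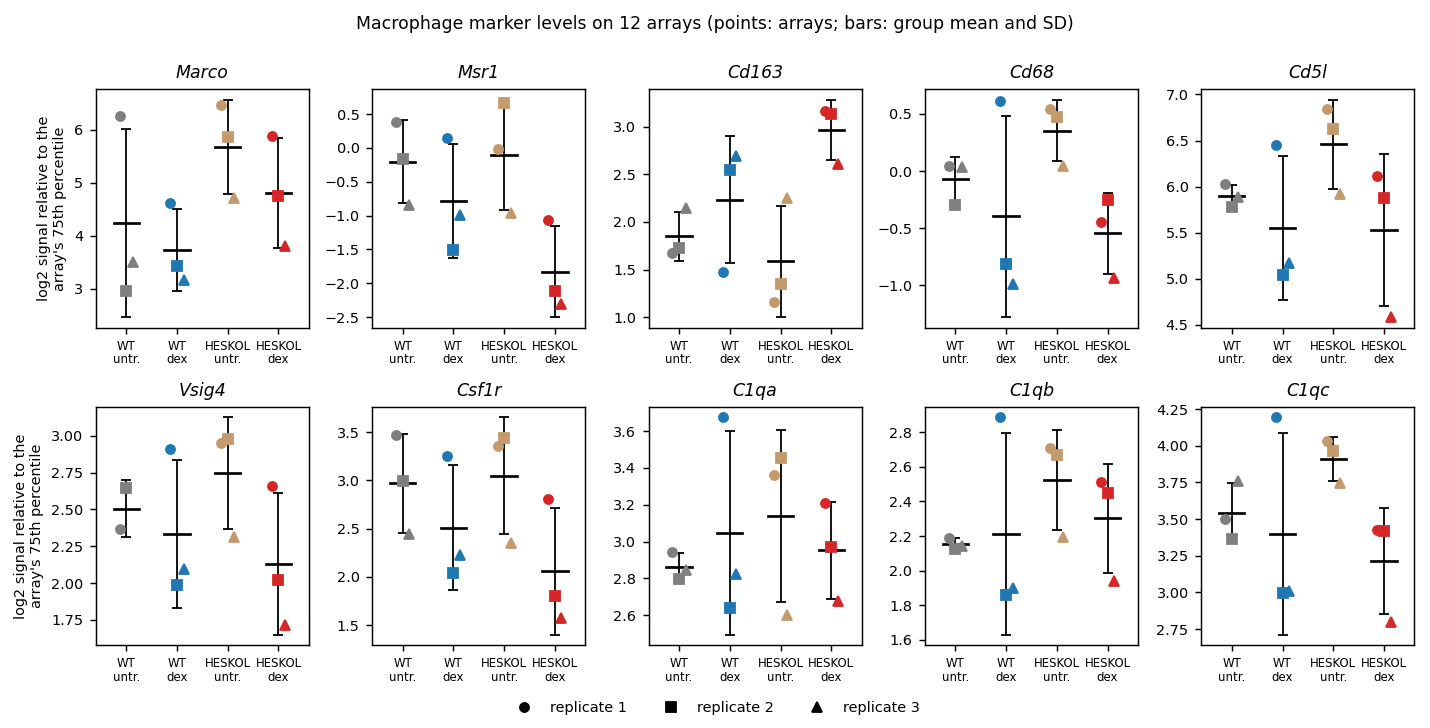
Levels of the 10 markers on the 12 arrays (points) with group means and SDs (black bars); the vertical axis is log2 signal relative to the array's 75th percentile, and each panel has its own scale. Cd163 in treated HESKOL liver lies at 2.61 to 3.16, above all untreated HESKOL arrays, while Msr1, Cd68 and C1qc in treated HESKOL liver lie below the untreated ones.

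In HESKOL liver 1 of the 10 markers, Cd163, was 2.60-fold higher after dexamethasone, and none was lower past the threshold (adjusted p under 0.05, limma over 18708 genes). Within a genotype the treated and untreated arrays lay on different slides, so slide and treatment cannot be told apart. The other 9 markers had changes below 0, from -1.72 for Msr1 to -0.19 for C1qa. The median of the 10 was -0.78 against -0.0025 over all genes tested. At this threshold 7.83% of all genes were called, 3.63% higher and 4.2% lower, so 1 call among 10 is near the background. Changes below 0 were found for 50.1% of all genes. In wild-type liver no marker passed by limma and none had an unadjusted p under 0.05, where 0.198% of all genes passed. There 7 of the 10 changes were below 0, with a median of -0.25 against -0.020 over all genes, of which 52.1% were below 0.

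Cd163 is the scavenger receptor that takes up haemoglobin bound to haptoglobin. Its levels were 1.16, 1.35 and 2.25 in untreated and 3.16, 3.13 and 2.61 in treated HESKOL liver, where the groups did not overlap. In wild-type liver they were 1.67, 1.73 and 2.14 without treatment and 1.48, 2.54 and 2.69 after dexamethasone, so 2 treated arrays lay above all untreated ones and replicate 1 below them. The change was 1.38 ± 0.37 (SE, 95% interval 0.57 to 2.20, adjusted p = 0.0456 by limma) in HESKOL liver and 0.39 ± 0.37 (adjusted p = 0.734) in wild-type liver. With any 1 array left out the HESKOL change stayed between 1.17 and 1.71. Leaving out a wild-type array kept it at 1.38 and altered only the pooled spread and the adjustment. The HESKOL call, near the threshold, was less stable. It was lost when any 1 of 9 arrays was left out: each untreated wild-type array, replicate 2 of treated wild-type, replicates 1 and 2 of untreated HESKOL, and each treated HESKOL array (adjusted p = 0.0545 to 0.158 by limma). The adjusted p was 0.0140 without replicate 1 of treated wild-type liver, and over all alternatives it ranged from 0.0140 to 0.902.

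Msr1 encodes the class A scavenger receptor for modified lipoproteins. Untreated HESKOL liver had -0.012, 0.66 and -0.96 and treated HESKOL liver -1.06, -2.11 and -2.31, so every treated array was below every untreated one. Wild-type liver had 0.38, -0.16 and -0.84 without treatment and 0.15, -1.51 and -0.98 with it, and these overlapped. The change was -1.72 ± 0.54 in HESKOL liver (SE, adjusted p = 0.0741 by limma) and -0.58 ± 0.54 in wild-type liver (adjusted p = 0.724). When every probe was tested by itself, the other 2 Msr1 probes gave -1.93 ± 0.41 and -1.46 ± 0.54 in HESKOL liver, and the first of these passed (adjusted p = 0.0208 and 0.127 by limma). Without replicate 1 of treated wild-type liver the gene's HESKOL change was unaltered, with a smaller pooled SE of 0.48, and passed as well (adjusted p = 0.0381 by limma).

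Marco, a scavenger receptor for bacteria and particles, varied most between arrays of a group. Untreated wild-type liver had 6.27, 2.95 and 3.51, a 9.99-fold range, and treated wild-type liver 4.62, 3.42 and 3.17. Untreated HESKOL liver had 6.46, 5.86 and 4.72 and treated HESKOL liver 5.88, 4.75 and 3.80. The groups overlapped in each pairwise comparison, and the SD within groups, 1.19, was larger than that of 97.1% of genes tested. Marco was 1.44 ± 0.84 higher on average in HESKOL than in wild-type liver without treatment (SE, 95% interval -0.40 to 3.28, adjusted p = 1.00 by limma). Its changes with dexamethasone were -0.87 ± 0.84 in HESKOL and -0.51 ± 0.84 in wild-type liver (adjusted p = 0.563 and 0.867 by limma).

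Cd68, a lysosomal glycoprotein of phagocytes, was at 0.54, 0.47 and 0.046 in untreated and -0.44, -0.25 and -0.94 in treated HESKOL liver, without overlap. In wild-type liver it was at 0.044, -0.30 and 0.034 without treatment and 0.62, -0.82 and -0.99 with it. Treated replicate 1 was thus above all untreated wild-type arrays and the other 2 treated arrays below them. The change was -0.90 ± 0.38 in HESKOL and -0.32 ± 0.38 in wild-type liver (SE, adjusted p = 0.175 and 0.798 by limma). Without that replicate the HESKOL change was unaltered, but its SE, pooled over the groups, was 0.23 and it passed (adjusted p = 0.0275 by limma). The wild-type change was then -0.83 (adjusted p = 0.0879 by limma).

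Cd5l, also known as AIM, is a secreted scavenger protein that circulates with IgM. Its levels were 6.03, 5.78 and 5.88 in untreated and 6.45, 5.04 and 5.17 in treated wild-type liver. HESKOL liver had 6.84, 6.62 and 5.91 without treatment and 6.12, 5.87 and 4.58 with it. The groups overlapped in both genotypes, with a change of -0.93 ± 0.46 in HESKOL and -0.34 ± 0.46 in wild-type liver (SE, adjusted p = 0.235 and 0.825 by limma).

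Vsig4 encodes CRIg, the complement receptor with which Kupffer cells catch C3b-coated bacteria. Its spot on replicate 3 of untreated wild-type liver was marked as an outlier by the scanner software and left out of the fit, which leaves 2.37 and 2.64 in that group. Treated wild-type liver had 2.91, 1.99 and 2.10. HESKOL liver had 2.95, 2.98 and 2.31 without and 2.66, 2.02 and 1.71 with treatment, overlapping. The changes of -0.61 ± 0.33 in HESKOL and -0.17 ± 0.37 in wild-type liver did not pass (SE, adjusted p = 0.290 and 0.906 by limma). The spot left out had a level of 3.54, and keeping it turned the genotype difference without treatment from 0.24 to -0.10 and the wild-type dexamethasone change to -0.52.

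Csf1r encodes the receptor for CSF1 and IL-34, on which macrophages depend. Wild-type liver had 3.48, 2.99 and 2.45 without treatment and 3.25, 2.04 and 2.23 with it. HESKOL liver had 3.35, 3.44 and 2.35 without and 2.81, 1.80 and 1.57 with treatment. Replicate 3 was the lowest array of both untreated groups, and treated and untreated arrays overlapped in both genotypes. The change was -0.99 ± 0.45 in HESKOL and -0.46 ± 0.45 in wild-type liver (SE, adjusted p = 0.203 and 0.739 by limma). Tested by themselves, its other 2 probes gave -0.99 ± 0.68 and -1.51 ± 0.56 in HESKOL liver (adjusted p = 0.415 and 0.129 by limma).

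C1qa, C1qb and C1qc encode the 3 chains of C1q, the recognition subunit of the classical complement pathway. C1qa was at 2.94, 2.80 and 2.84 in untreated and 3.67, 2.64 and 2.82 in treated wild-type liver, and at 3.36, 3.45 and 2.60 in untreated and 3.21, 2.97 and 2.68 in treated HESKOL liver. C1qb was at 2.19, 2.12 and 2.15, then 2.89, 1.86 and 1.90 after treatment, in wild-type liver, and at 2.71, 2.67 and 2.19, then 2.51, 2.45 and 1.94, in HESKOL liver. For both genes the untreated wild-type arrays lay close together, and replicate 1 of treated wild-type liver was the highest of all 12 arrays. C1qc was at 3.50, 3.37 and 3.76, then 4.19, 2.99 and 3.01, in wild-type liver, and at 4.03, 3.96 and 3.74, then 3.42, 3.42 and 2.80, in HESKOL liver. Of the 3 chains, C1qc alone separated treated from untreated HESKOL arrays, with a change of -0.70 ± 0.32 (SE). C1qa and C1qb had -0.19 ± 0.31 and -0.22 ± 0.29, and none of the 3 passed (adjusted p = 0.208, 0.751 and 0.686 by limma). In wild-type liver the changes were -0.14, 0.18 and 0.060 in the same order (adjusted p = 0.910, 0.870 and 0.961 by limma). The difference between the chains was not tested.

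In all, 4 markers separated treated from untreated HESKOL liver without overlap, Cd163 upwards and Msr1, Cd68 and C1qc downwards. Over all genes tested 34.3% did so, 15.6% upwards and 18.7% downwards. In wild-type liver no marker did, where 12.1% of all genes did. Without replicate 1 of treated wild-type liver 9 of the 10 wild-type changes were below 0, with a median of -0.67 and none called, where 5.98% of all genes were. The calls in HESKOL liver were then 3 (Cd163, Msr1 and Cd68), where 14.9% of all genes were called. Leaving out a wild-type array does not alter a HESKOL change itself, only the spread pooled over the groups and the adjustment.

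**Figure D2:**
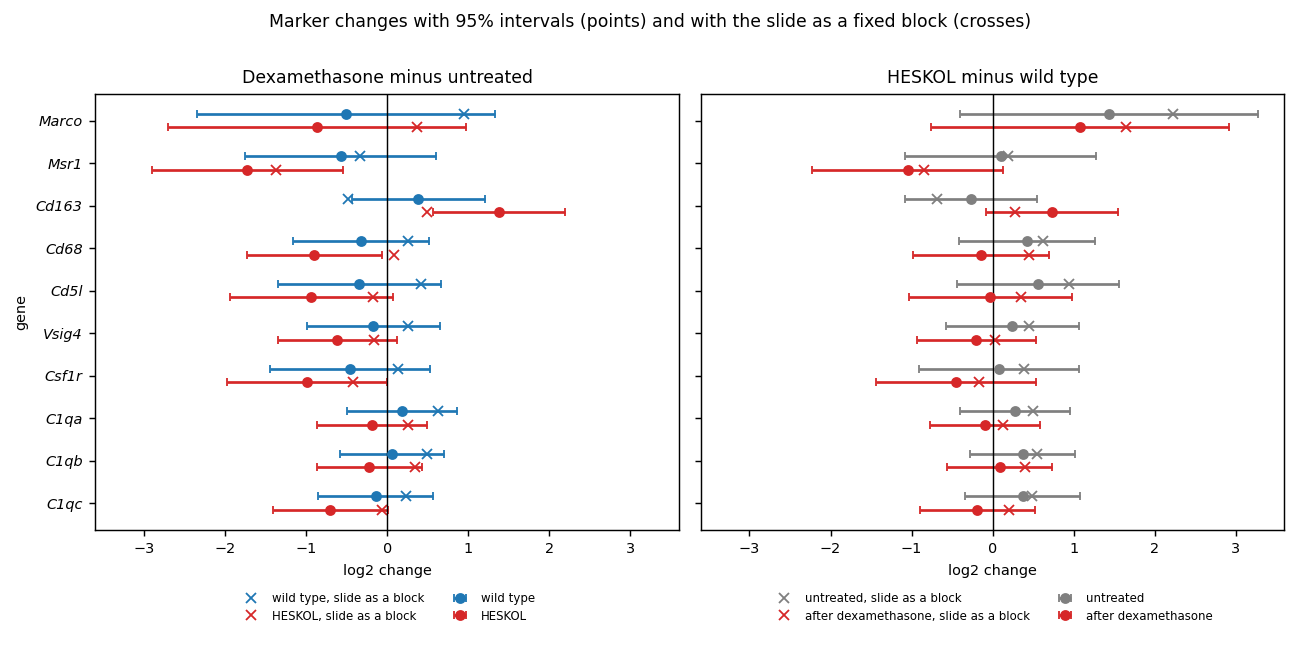
Change of each marker with dexamethasone (left) and between genotypes (right) in log2 units; points and bars are estimates with 95% intervals, and crosses are the estimates with the slide as a fixed block. The intervals of Cd163, Msr1, Cd68 and Csf1r in HESKOL liver after dexamethasone do not include 0, and their crosses lie nearer to 0.

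Averaged over both genotypes, the dexamethasone change was 0.88 ± 0.26 for Cd163 and -1.15 ± 0.38 for Msr1 (SE, adjusted p = 0.0512 and 0.0734 by limma). No marker was called by limma, where 11.8% of all genes were. When every probe was tested by itself, the other 2 Msr1 probes gave -1.28 ± 0.29 and -0.91 ± 0.38 in this average. The first of these passed (adjusted p = 0.0210 and 0.148 by limma). Of the 18708 genes tested 5317 had an unadjusted p under 0.05 by limma, and so did 4 of the markers. Without replicate 1 of treated wild-type liver 4 were called, where 23% of all genes were: Cd163 rose by 1.07, and Msr1 (-1.38), Cd68 (-0.86) and C1qc (-0.62) fell (adjusted p = 0.00786, 0.0209, 0.00639 and 0.0206 by limma). The difference between the dexamethasone changes of the genotypes passed for no marker by limma, where 0.016% of all genes passed, and no marker had an unadjusted p under 0.05. It was 0.99 for Cd163 (95% interval -0.16 to 2.15) and -1.15 for Msr1 (-2.82 to 0.52). A marker called in HESKOL and not in wild-type liver is thus not shown to respond differently in them.

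The arrays lay on 3 slides of 4 arrays. Slide 1 held the 3 untreated wild-type arrays and 1 untreated HESKOL array, slide 2 held 2 untreated HESKOL and 2 treated wild-type arrays, and slide 3 held 1 treated wild-type and the 3 treated HESKOL arrays. No slide held treated and untreated arrays of 1 genotype, so a dexamethasone change with the slide as a block passes through the other genotype, and within a genotype slide and treatment cannot be told apart. With that block the Cd163 change was 0.49 ± 0.66 in HESKOL and -0.48 ± 0.66 in wild-type liver (SE). The Msr1 change in HESKOL liver was -1.37 ± 1.10 and the Cd68 change 0.087 ± 0.69. The median of the 10 markers was then 0.014 in HESKOL and 0.26 in wild-type liver, with 5 and 2 below 0 and none called.

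Without treatment, 9 of the 10 markers were higher on average in HESKOL than in wild-type liver, with a median of 0.32 against 0.043 over all genes, of which 41.7% were lower there, and none passed. No gene of the 18708 passed by limma (0%), while 296 genes but no marker had an unadjusted p under 0.05. Cd68 and C1qb were higher in all 3 HESKOL than in all 3 wild-type arrays, by 0.43 ± 0.38 and 0.37 ± 0.29 (SE), and 4.16% of all genes were separated in that direction. Cd163 was the marker below 0, at -0.26 ± 0.37. Within slide 1, as the slide block gives it, the difference was -0.69 ± 0.50 for Cd163, 2.22 ± 1.23 for Marco and 0.94 ± 0.67 for Cd5l.

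After dexamethasone the genotypes did not separate for any marker, where 18.3% of all genes separated. None passed by limma, where 1.14% of all genes did, and none had an unadjusted p under 0.05. HESKOL minus wild-type was 1.08 ± 0.84 for Marco, 0.73 ± 0.37 for Cd163 and -1.05 ± 0.54 for Msr1 (SE, adjusted p = 0.582, 0.369 and 0.376 by limma). Within slide 3 the same differences were 1.64, 0.28 and -0.84. Without replicate 1 of treated wild-type liver the median of the 10 markers was 0.29 in place of -0.12. Averaged over both treatment states the difference ran from -0.47 for Msr1 to 1.26 for Marco, with no marker called by limma, where 0.241% of all genes were, and none with an unadjusted p under 0.05.

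**Figure D3:**
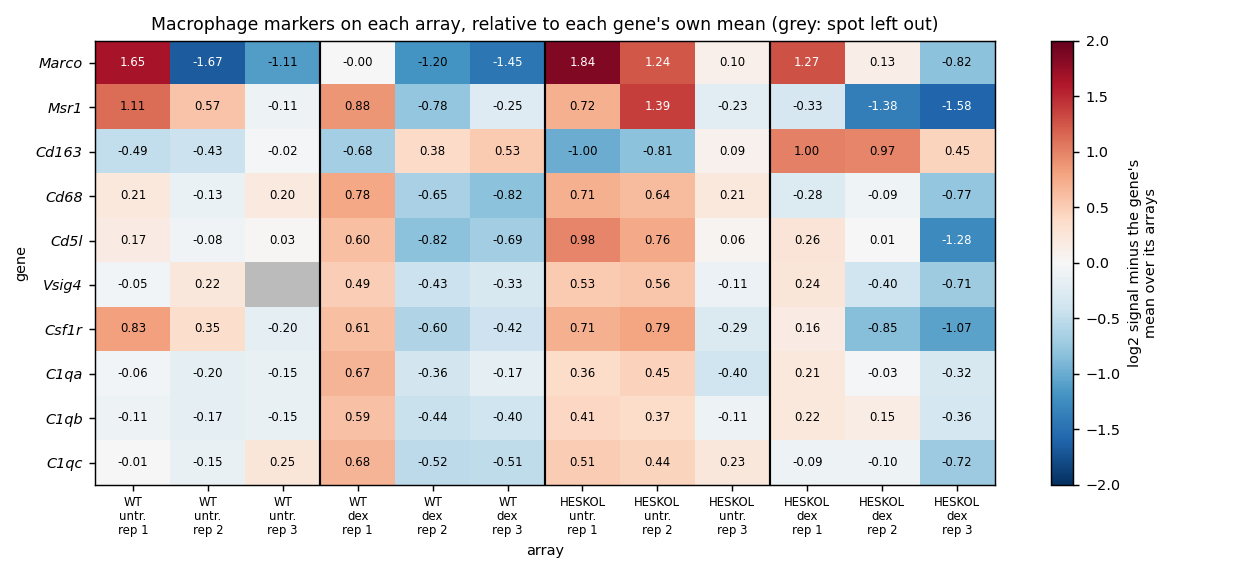
Log2 signal of each marker on each array minus that gene's mean over its arrays, in the 4 groups (black lines); red is above and blue below the gene's own mean, and the grey cell is the spot left out. Treated HESKOL replicate 3 is blue for the 9 markers other than Cd163, which is red there, and treated wild-type replicate 1 is blue for Cd163.

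The markers varied together between arrays of a group as well as between groups. Treated wild-type replicate 1 was the highest array of its group for 9 markers and the lowest for Cd163. Treated HESKOL replicate 3 was the lowest of its group for all 10 markers, and untreated HESKOL replicate 3 for 9. Averaged over the 9 markers other than Cd163, the level relative to each gene's own mean was 0.59 on treated wild-type replicate 1 and -0.64 and -0.56 on the other 2 arrays of that group.

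Described over the 12 arrays, Pearson's r in the 36 pairs of markers other than Cd163 ran from 0.45 to 0.98, with a median of 0.75. The points share each array's scaling, the slides and the group differences. Cd68 and C1qc had r = 0.98, and 0.97 after each group's mean was removed, and Csf1r and Msr1 had 0.97 both ways. C1qa and C1qb had r = 0.92, with an SD of the difference between them of 0.13 log2 units over the arrays. Cd163 ran opposite to the other 9, from -0.85 with Msr1 to -0.33 with Marco. With group means removed, r between Cd163 and Msr1 was -0.63.

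The named genes with the highest Pearson's r to each marker over the arrays are given as a description. Cd68 was most like Tbxas1, thromboxane A synthase (0.98), and C1qa most like Slc11a1, the phagosomal metal transporter NRAMP1 (0.96). Msr1 was most like Cd300ld, a receptor of the CD300 family (0.98), and Marco most like Ear1, an eosinophil-associated ribonuclease (0.87). Csf1r was most like Nckipsd (0.98), Vsig4 most like Epb41l3 (0.96 over 11 arrays), Cd5l most like Prkcq (0.96), C1qb most like Pygm (0.94) and C1qc most like Scpep1 (0.98). Cd163 was most like Gtf2e1 and Gtf2f2, subunits of general transcription factors, and Cavin2, a caveolar coat protein, each with r = 0.97.

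Genes that share the markers' cells or pathways were counted in lists. Over all genes tested 7.83% were called in HESKOL liver (3.63% higher, 4.2% lower), 0.198% in wild-type liver and 11.8% averaged over both genotypes. Of the 18708 genes, 4608 had an unadjusted p under 0.05 in HESKOL and 2202 in wild-type liver. Of 12 other Kupffer cell markers, 11 had changes below 0 in HESKOL liver (median -0.50) and 9 in wild-type liver (median -0.13). In HESKOL liver 2 passed: Adgre1 fell by 1.60 and Spic, a transcription factor of red pulp and Kupffer macrophages, fell by 1.63 (adjusted p = 0.0403 and 0.0111 by limma). Adgre1 went from 3.95, 3.62 and 2.90 to 2.50, 1.85 and 1.33, where the groups did not overlap. Clec4f went from 4.88, 5.04 and 4.59 to 4.46, 4.43 and 3.99, also without overlap, a change of -0.54 ± 0.25 that did not pass (SE, adjusted p = 0.212 by limma). With the slide as a block Adgre1, Spic and Clec4f had -0.81, -1.67 and -0.30, none of them called. Leaving out replicate 1 of treated wild-type liver gave 4 calls in HESKOL liver, where 14.9% of all genes were called, and a wild-type median of -0.27.

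Among 13 macrophage growth and transcription factors, 2 fell in HESKOL liver, where 4.2% of all genes did. Csf1, a ligand of Csf1r, fell by 1.90 and Id3, which Kupffer cells need, by 2.13 (adjusted p = 0.0114 and 0.0257 by limma). Csf1 was at 0.70, 1.03 and 0.32 in untreated and -0.82, -1.30 and -1.52 in treated HESKOL liver. In wild-type liver it was at 0.95, 1.07 and 0.32 without and 0.53, -0.65 and -0.45 with treatment, overlapping, a change of -0.97 ± 0.35 (SE, adjusted p = 0.315 by limma). That change passed without replicate 1 of treated wild-type liver (adjusted p = 0.0359 by limma). Il34, which encodes the other ligand, had 0.25 in HESKOL and -0.22 in wild-type liver. Averaged over both genotypes 2 of the 13 were called higher and 2 lower, where 11.8% of all genes were called. Cebpb rose by 0.96 in that average (adjusted p = 0.0137 by limma), and which cells of the liver this came from was not tested.

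Of 12 measured complement partners of C1q, 2 fell in HESKOL liver, where 4.2% of all genes did. C3ar1, the C3a receptor, fell by 1.19 and the complement inhibitor Cd55 by 0.94 (adjusted p = 0.0110 and 0.0413 by limma). Averaged over both genotypes 2 of the 12 were called higher and 1 lower, where 11.8% of all genes were called. The lower one was C3ar1, which fell by 1.01 (adjusted p = 0.0038 by limma). The list's median was 0.057 in HESKOL and -0.011 in wild-type liver, and C2 and C3, made largely by hepatocytes, had -0.31 and 0.087 in HESKOL liver. Of 15 tested scavenger and pathogen receptors none passed by limma in either genotype, with medians of -0.12 and 0.055 and 5 and 0 genes at an unadjusted p under 0.05. Mrc1, the mannose receptor, had 0.10 and 0.16. Of 12 genes linked to glucocorticoid action in macrophages, Dab2 fell by 1.06 in HESKOL liver (adjusted p = 0.0270 by limma), and Il1r2, the interleukin 1 decoy receptor, rose by 2.87 averaged over both genotypes (adjusted p = 0.0272). With replicate 1 of treated wild-type liver left out, 1 scavenger or pathogen receptor was called higher and 4 lower in HESKOL liver, and the wild-type median of that list turned to -0.078. Over all genes 14.9% were then called in HESKOL liver. The medians of the glucocorticoid-linked genes were -0.011 in HESKOL and 0.19 in wild-type liver.

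Of 14 tested macrophage activation genes, 12 had changes below 0 in HESKOL liver with a median of -1.60. There 5 were called lower, where 4.2% of all genes were. In wild-type liver 4 were below 0, with a median of 0.35 that turned to -0.36 without treated replicate 1. Il1b, which encodes interleukin 1 beta, was at -0.23, -0.030 and -0.70 in untreated and -4.15, -3.95 and -5.0 in treated HESKOL liver. In wild-type liver it was at -0.62, -1.77 and -1.23 without and -0.26, -1.39 and -0.41 with treatment, overlapping. Its change was -4.05 ± 0.40 in HESKOL and 0.52 ± 0.40 in wild-type liver (SE, adjusted p = 0.00101 and 0.658 by limma). The chemokine genes Ccl2 and Ccl3 fell by 3.73 and 2.86 in HESKOL liver, and Acod1, which makes itaconate, fell by 4.74 (adjusted p = 0.0240, 0.0252 and 0.0208 by limma). Ccl3 and Acod1 were well above background on only 1 of the 3 treated HESKOL arrays, so the sizes of these changes are uncertain. Tnf was not well above background on any treated HESKOL array and was at least 7.08-fold lower there than without treatment (adjusted p = 0.00229 by limma for the fitted change). For this bound the untreated mean was set against each treated array's lowest detectable signal, or the probe's own where that was higher. In wild-type liver the Tnf change was -2.09 (adjusted p = 0.128 by limma), with 2 of 3 treated arrays well above background. Without treated wild-type replicate 1 it was -2.27 (adjusted p = 0.0384 by limma). Of the 14 genes 1 was then called higher and 1 lower in wild-type liver, where 5.98% of all genes were called. In HESKOL liver 6 were then called lower, where 14.9% of all genes were called.

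Markers of other leukocytes were measured on the same arrays. Of all genes, 4.2% were called lower in HESKOL liver. All 17 general leukocyte and myeloid genes had changes below 0 in both genotypes, with medians of -1.36 in HESKOL and -0.47 in wild-type liver, and Lyz2 and Lst1 fell by 1.70 and 1.84 in HESKOL liver (adjusted p = 0.0406 and 0.0420 by limma). All 12 lymphocyte genes were below 0 in both genotypes, with medians of -1.08 and -0.70, and Cd79a of the B cell receptor fell by 1.51 in HESKOL liver (adjusted p = 0.0391 by limma). Of 11 dendritic cell genes, with medians of -0.68 and -0.46, Ciita fell by 2.41 in HESKOL liver (adjusted p = 0.0338 by limma). The 11 neutrophil genes had medians of -2.35 and -0.19 and the 10 monocyte genes -1.09 and -0.19, with none called by limma. At an unadjusted p under 0.05 there were 0 neutrophil and 2 monocyte genes in HESKOL liver, and 0 and 0 in wild-type liver. With replicate 1 of treated wild-type liver left out, the wild-type medians were -0.81 for leukocyte and myeloid, -1.34 for lymphocyte, -0.93 for dendritic cell and -0.57 for neutrophil genes. In wild-type liver 1 leukocyte and 4 lymphocyte genes were then called lower, and in HESKOL liver 7 leukocyte, 5 lymphocyte, 2 dendritic cell and 1 monocyte gene. Over all genes 5.98% were then called in wild-type and 14.9% in HESKOL liver.

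Neutrophil genes varied widely between arrays of a group. Their mean level was 3.00, -1.34 and -2.32 in untreated wild-type, 0.92, 0.17 and -1.75 in treated wild-type, -2.39, 2.51 and 1.29 in untreated HESKOL and -0.19, -0.69 and -4.05 in treated HESKOL liver. Untreated wild-type replicate 1, first of its group, had the highest neutrophil mean of all arrays. It was the highest of its group for 7 markers, Marco, Msr1 and Csf1r among them. Untreated HESKOL replicate 1 had the highest Marco of all arrays and the lowest neutrophil mean of its group. The mean of the leukocyte and myeloid genes was 1.21, 1.23 and 0.20 in treated HESKOL liver, lowest on replicate 3, which was also the lowest of its group for every marker. The part of these cells in the marker results was not tested.

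The 11 endothelial genes had -0.077 in HESKOL and -0.048 in wild-type liver, yet Lyve1, a hyaluronan receptor of sinusoidal endothelium, rose by 2.62 and 2.22 (adjusted p = 0.00253 and 0.0308 by limma). Kdr and Fcgr2b fell by 1.56 and 1.00 in HESKOL liver (adjusted p = 0.0258 and 0.0412 by limma). The 10 stellate cell genes had -0.070 and 0.072, and Ngfr fell by 2.02 in HESKOL liver (adjusted p = 0.0380 by limma). The 10 hepatocyte genes had 0.17 and 0.32, and in HESKOL liver Cps1 of the urea cycle rose by 1.37 and Ttr fell by 1.54 (adjusted p = 0.0337 and 0.0139 by limma). The 7 bile duct genes had -0.58 and 0.11, with none called by limma and 2 and 2 at an unadjusted p under 0.05. Without treated wild-type replicate 1 the wild-type medians were -0.19 for endothelial, -0.085 for stellate and -0.21 for bile duct genes. None of the list genes named here was called with the slide as a block.

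**Figure D4:**
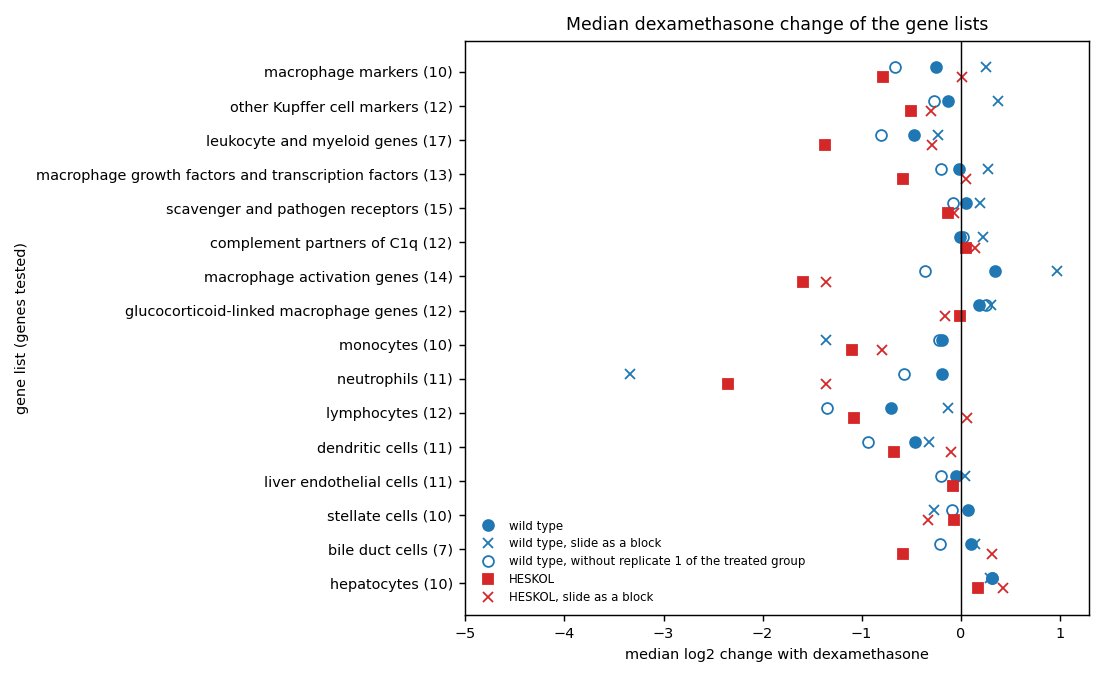
Median log2 change with dexamethasone of the macrophage markers and 15 other gene lists in wild-type and HESKOL liver, with the slide as a fixed block (crosses) and, for wild-type liver, without replicate 1 of the treated group (open circles). The markers sit at -0.78 in HESKOL and -0.25 in wild-type liver, and their crosses at 0.014 and 0.26.

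Known glucocorticoid-responsive genes give the scale of the treatment. Tat, a hepatocyte enzyme of tyrosine breakdown, rose by 1.40 in HESKOL liver and had a change of 1.49 in wild-type liver (adjusted p = 0.0174 and 0.0917 by limma). Fkbp5 had 3.63 and 1.85 (adjusted p = 0.0577 and 0.531 by limma), and Tsc22d3 1.88 and 0.54 (adjusted p = 0.0812 and 0.786 by limma). Without replicate 1 of treated wild-type liver the wild-type changes were 3.42 for Fkbp5, 1.38 for Tsc22d3 and 1.52 for Tat (adjusted p = 0.00867, 0.0628 and 0.0259 by limma). The HESKOL changes of Fkbp5 and Tsc22d3, unaltered in size, then passed as well (adjusted p = 0.00153 and 0.00659 by limma). Nr3c1, the glucocorticoid receptor itself, had -0.51 and -0.14 (adjusted p = 0.114 and 0.815 by limma).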

How the data were processed

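RNA (500 ng per array, Cy3) was hybridised to one-colour Agilent arrays, 3 per group. The deposited files hold spot intensity values written by Agilent Feature Extraction 9.5.3.1, per the file headers (9.5 in the submitters' processing notes). The authors' deposited series table equals the processed signal intensity of the same arrays within 0.1% and is not scaled between arrays. Of 45018 spots, 1639 controls and spots marked as outliers were left out, and spots of 1 probe were averaged, giving 41174 probes. Levels are log2 processed signal minus each array's 75th percentile. Probes were named from RefSeq by accession (22951) or by symbol or synonym (9768), 1461 kept the file's name and 6994 had none. The probe with the highest mean stood for a gene. A gene entered the test where every array of some group had it well above background. limma 3.58.1 (R 4.3.3) fitted all 4 groups (8 residual and 3.12 prior degrees of freedom) with Benjamini-Hochberg adjustment over 18708 genes and a threshold of 0.05, and was tested on simulated data. Tables and figures used Python 3.11.15, pandas 2.3.3 and matplotlib 3.10.9.

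Alternatives covered scaling, background correction (normexp, offset 50), the filter, probe choice, slide, replicate number, variance model and each array left out. All 10 markers are named in the text, with the first 2 measured genes of each of 15 lists, up to 4 further list genes past the threshold, 5 check genes, and the genes most like each marker. A list gene that the rule would name is not reported here. The markers and lists were chosen with earlier results of these data known. Probe positions are those of the array design on mm7, and promoters are from RefSeq on GRCm38.p6, a different build.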

Additional observations from a re-analysis of the deposited data

Results flagged for a closer look

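The difference between the dexamethasone changes of the genotypes was past the threshold for Il1b, which encodes interleukin 1 beta. HESKOL minus wild-type was -4.57 ± 0.57 (SE, adjusted p = 0.0343 by limma), from a change of -4.05 in HESKOL liver and 0.52 in wild-type liver, and it was listed here because the genotypes' responses differed in that test. All 3 treated HESKOL arrays lay below all untreated ones, while treated and untreated wild-type arrays overlapped. After dexamethasone Il1b was -3.68 in HESKOL minus wild-type liver (adjusted p = 0.00287 by limma). With the slide as a fixed block the difference between the changes was -4.94 and was not called. Within a genotype slide and treatment cannot be told apart. Without replicate 1 of treated wild-type liver the difference between the changes was -4.36 (adjusted p = 0.0486 by limma).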

How the results depend on the processing

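With 3 arrays in a group, the number of arrays limits the precision. In HESKOL liver after dexamethasone the count of markers called, 1 as reported, was 0 with the deposited unscaled series table, with no filter on dim probes and with the slide as a fixed block, and 2 with the slide as a random block (Cd163 and Msr1). Averaged over both genotypes the count, 0 as reported, was 1 with normexp background correction and with a trended and robust variance, each time Cd163, and 2 with the slide as a random block. Leaving out 1 array at a time gave 0 to 3 markers in HESKOL liver and 0 to 4 averaged over both genotypes. Without replicate 1 of treated wild-type liver the counts were 3 and 4, where 14.9% and 23% of all genes were called. With all arrays 7.83% and 11.8% of all genes were called. The shares of all genes under the other alternatives are not given, so these counts are not results about the markers. In the other 5 comparisons no marker was called under any alternative. Replicate numbers were not used to pair the arrays. Deviations from the group means correlated at -0.40 to 0.62 over 18 same-numbered pairs, above 0.1 in 6. Pairs with different numbers ran from -0.71 to 0.71, so these values cannot decide whether the numbers pair the arrays. With the replicate number as a block 2 markers were called in HESKOL liver (Cd163 and Msr1) and 3 averaged over both genotypes (Cd163, Msr1 and Csf1r), and the Vsig4 change in wild-type liver was 0.0096.

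The slide as a fixed block turned the direction of the most values. It did so for the change with dexamethasone in wild-type liver of Cd68 (0.26), Marco (0.95), Cd5l (0.42), Vsig4 (0.25), Csf1r (0.13), Cd163 (-0.48) and C1qc (0.23), and in HESKOL liver of Cd68 (0.087), Marco (0.37), C1qa (0.26) and C1qb (0.34). It also did so for the average over genotypes of Cd68 (0.17), Marco (0.66), Cd5l (0.12), Vsig4 (0.048), C1qa (0.44), C1qb (0.42) and C1qc (0.086). HESKOL minus wild-type turned after dexamethasone for Cd68 (0.45), Cd5l (0.35), Vsig4 (0.035), C1qa (0.13) and C1qc (0.20), and averaged over treatment states for Csf1r (0.11) and Cd163 (-0.20). The deposited unscaled table turned the wild-type dexamethasone change of C1qa (-0.14) and C1qb (-0.27), and HESKOL minus wild-type of Csf1r (-0.0066) without treatment, of Cd68 (0.012), Cd5l (0.13) and C1qa (0.066) after it and of Vsig4 (-0.0081) on average. Quantile normalization turned C1qb (-0.0066) in wild-type liver and the mean genotype difference of Vsig4 (-0.027), and normexp turned the same values, for C1qb (-0.031) and Vsig4 (-0.011). Median scaling turned Csf1r (-0.013) without treatment, C1qa (0.060) in the mean dexamethasone change and Vsig4 (-0.021) in the mean genotype difference. Keeping spots marked as outliers, an alternative chosen after seeing the data, turned the Vsig4 genotype difference without treatment (-0.10) and on average (-0.15). The cause was not tested.

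Leaving out single arrays turned the direction of values near 0. The ranges were, for the wild-type dexamethasone change, Marco (-1.15 to 0.51), C1qa (-0.13 to 0.39), C1qb (-0.28 to 0.24) and C1qc (-0.54 to 0.059), and for its average over genotypes C1qa (-0.16 to 0.10) and C1qb (-0.25 to 0.0090). For HESKOL minus wild-type they were Csf1r (-0.18 to 0.43) and Msr1 (-0.28 to 0.53) without treatment and Cd68 (-0.44 to 0.36), Cd5l (-0.33 to 0.44), Vsig4 (-0.46 to 0.088), C1qa (-0.30 to 0.22), C1qb (-0.090 to 0.42) and C1qc (-0.39 to 0.21) after dexamethasone. For the mean genotype difference they were Cd68 (-0.0091 to 0.39), Vsig4 (-0.11 to 0.16), Csf1r (-0.37 to 0.000091), C1qa (-0.011 to 0.25) and C1qc (-0.010 to 0.29), and for the difference between the dexamethasone changes Marco (-1.38 to 0.28) and C1qb (-0.46 to 0.054).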
